A study of Mus musculus with 6 samples.

Results

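The keratin and desmosome genes of 4T1 cells were examined in WT and GPD2 KO libraries. The set was chosen by gene symbol as 10 genes, Krt7, Krt8, Krt14, Krt18, Krt19, Dsp, Jup, Pkp2, Pkp3 and Dsg2, and 6 of these were found among the 12534 genes of the expression table. The measured genes were the keratins Krt7, Krt8 and Krt18 and the desmosome genes Jup, Pkp2 and Pkp3, and all 6 were among the 12106 genes that entered the test. Krt14, Krt19, Dsp and Dsg2 were not analysed here.

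Keratins are the intermediate filament proteins of epithelial cells. A filament is built from a type II keratin, such as Krt7 or Krt8, paired with a type I keratin, such as Krt18, so neither type forms a filament alone, and Krt7, Krt8 and Krt18 are keratins of simple epithelia and of the luminal cells of the mammary gland. Desmosomes are the cell junctions to which keratin filaments attach: their cadherins bind the neighbouring cell, and plakoglobin (Jup), the plakophilins (Pkp2, Pkp3) and desmoplakin (Dsp) link those cadherins to the filaments.

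The 4T1 line is a mammary carcinoma line of the BALB/c mouse strain, grown here in RPMI medium. RNA was sequenced from 3 WT samples and 3 samples labelled Gpd2 -/-, called GPD2 KO below, whose guide RNA and Cas9 vector is named in the treatment field of every sample, WT included, although the methods of the study describe transfection, puromycin selection and cloning of single cells for the KO lines. The KO libraries came from 1 clone, GPD2 KO (1), so the knockout and the history of that clone cannot be told apart. The labels do not say whether replicates were separate cultures, and p-values therefore measure only the spread between these samples, which may be technical. In bulk RNA, fewer cells that express a gene and less of its RNA per cell cannot be told apart.

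Total counts were 51186527 to 59846170 per library. Gpd2, the targeted gene, lay between 134.7 and 135.7 CPM (counts scaled to the library total) in WT libraries and between 25.6 and 26.2 in KO libraries, a log2 fold change of -2.39 (SE, the standard error, 0.0317, adjusted p = 5.12e-11 by the quasi-likelihood test of edgeR with Benjamini-Hochberg adjustment). Over all tested genes, 66.8% passed this test at an adjusted p under 0.05, with 33.5% higher and 33.3% lower in GPD2 KO cells, and the median log2 fold change was 0.00.

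Krt7, Krt8, Krt18 and Jup fell in 4T1 GPD2 KO cells, Pkp2 rose slightly, and Pkp3 did not pass the test. Thus 4 of the 6 measured genes were lower and 1 was higher, where 33.3% and 33.5% of all tested genes were, and their median log2 fold change was -0.69. In 4 of the 6, every KO library lay below every WT library, as in 35.4% of tested genes, and in 1, Pkp2, every KO library lay above, as in 35.7%. In either direction 5 of the 6 passed, where 66.8% of all tested genes did, so passing the test did not by itself set these genes apart. The study itself used a fold of at least 2 with an unadjusted exact test p under 0.05. By that rule 8.64% of tested genes passed, 4.78% as lower in KO, and Krt7 was the only one of the 6 to pass.

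**Figure D1:**
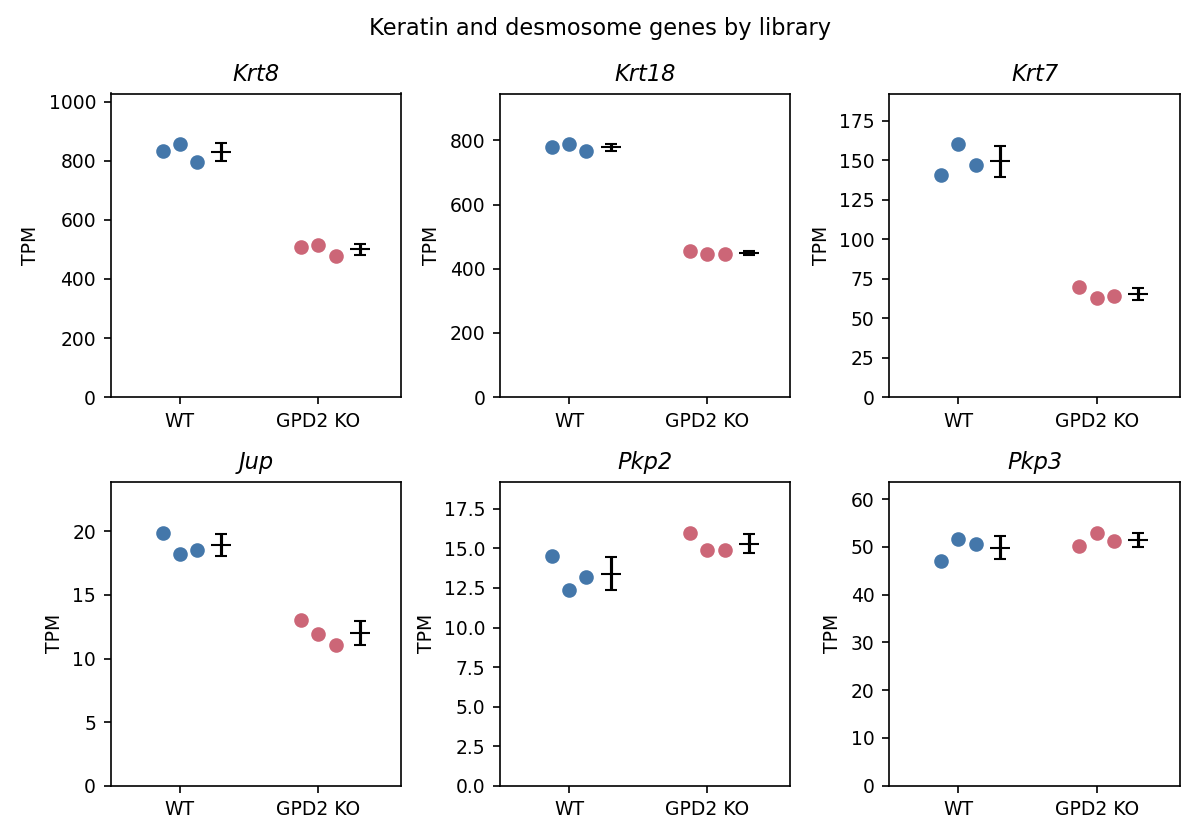
Abundance of the 6 measured genes in TPM (abundance scaled to transcript length and library depth, vertical axes starting at 0) in each WT (blue) and GPD2 KO (red) library, with the mean and SD of 3 libraries beside the points. The 3 keratins and Jup are separated between genotypes, Krt8 from 795.0 and above in WT to 514.7 and below in KO, while the Pkp3 points overlap.

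The promoter sequences of Krt7, Krt8, Krt18 and Jup are shown because these are the genes that fell. They come from the RefSeq annotation of GRCm38.p6, which gave a window of 250 bases before to 50 after the annotated start for 4 of the 6 measured genes; Pkp2 and Pkp3 had none. The keratin promoters are printed from 250 bases before to 10 bases after the start, on the strand of the gene. The start used for the Jup window lies 49 bases inside the annotated gene, and only the 201 bases outside the gene are printed. Capitals mark the motifs found. The motifs searched on both strands were the AP-1 site TGANTCA, the GC box GGGCGG bound by Sp1, the E-box CAGGTG bound by Snail and Zeb repressors, and the TATA box TATAAA. The printed stretches lie at chr15:101412153-101412412 (plus strand, Krt7), chr15:102004333-102004592 (minus strand, Krt8), chr15:102027966-102028225 (plus strand, Krt18) and chr11:100397840-100398040 (minus strand, Jup).
Krt7: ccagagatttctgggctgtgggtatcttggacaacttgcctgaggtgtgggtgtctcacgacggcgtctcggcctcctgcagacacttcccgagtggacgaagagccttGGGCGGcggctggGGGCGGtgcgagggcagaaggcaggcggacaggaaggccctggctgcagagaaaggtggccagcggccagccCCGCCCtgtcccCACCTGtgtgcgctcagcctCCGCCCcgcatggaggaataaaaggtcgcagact
Krt8: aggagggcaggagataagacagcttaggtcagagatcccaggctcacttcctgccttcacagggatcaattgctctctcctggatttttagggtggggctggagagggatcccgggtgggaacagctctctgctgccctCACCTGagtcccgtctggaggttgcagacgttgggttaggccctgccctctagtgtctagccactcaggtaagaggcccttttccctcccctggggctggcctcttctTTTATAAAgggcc
Krt18: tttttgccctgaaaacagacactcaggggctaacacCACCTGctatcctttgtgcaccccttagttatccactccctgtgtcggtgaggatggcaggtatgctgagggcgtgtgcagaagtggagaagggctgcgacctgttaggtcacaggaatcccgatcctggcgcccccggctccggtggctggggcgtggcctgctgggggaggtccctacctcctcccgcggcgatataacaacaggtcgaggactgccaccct
Jup: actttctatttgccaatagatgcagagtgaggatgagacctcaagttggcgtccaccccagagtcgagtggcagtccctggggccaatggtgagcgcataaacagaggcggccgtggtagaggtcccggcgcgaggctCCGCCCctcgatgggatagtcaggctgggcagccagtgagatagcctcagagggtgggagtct
All 3 keratin promoters held 1 E-box, read on the opposite strand as CACCTG, beginning at -44 in Krt7, -111 in Krt8 and -214 in Krt18, where -1 is the base just before the annotated start. The Jup window held none, and 20.2% of all 32851 windows of the same length had the motif. Krt7 held 4 GC boxes and Jup held 2, 1 of them past the printed stretch, against none in Krt8 and Krt18, with 35.7% of all windows having at least 1. The TATA box was found only in Krt8 among the 4, as overlapping matches on both strands that begin at -3 and -1 and so span the annotated start, and 13.6% of all windows had one. No AP-1 site was in any of the 4 windows, and 7.81% of all windows had one. The GC content was 66.3% in Krt7, 58.0% in Krt8, 61.3% in Krt18 and 60.7% in Jup, and the median of all windows was 52.7%. These matches describe letters in the windows, and binding was not measured.

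Krt8, the type II keratin of simple epithelia, was the most abundant of the set on the TPM scale, which takes transcript length into account. Krt8 stood at 833.9, 856.0 and 795.0 TPM in WT libraries and at 507.1, 514.7 and 477.2 TPM in KO libraries. The genotypes did not overlap, and the lowest WT library was well above the highest KO library. The means were 828.3 ± 30.9 TPM for WT and 499.7 ± 19.8 TPM for GPD2 KO (SD, n = 3 each), and the log2 fold change was -0.73 (SE 0.0407, 95% interval -0.82 to -0.64, adjusted p = 4.01e-07 edgeR), a level 1.66-fold lower. Among the genes of the table, Krt8 moved from rank 151 by mean TPM in WT to rank 286 in KO, and 8.47% of tested genes had a lower log2 fold change.

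Krt18, the type I partner of Krt8, was at a level close to that of Krt8. Its TPM was 780.7, 788.4 and 767.0 in WT libraries and 456.9, 445.9 and 445.7 in KO libraries. Replicates of each genotype lay close together, with a coefficient of variation of 1.08% in WT and 0.752% in KO on the CPM scale. Krt18 fell from 778.7 ± 10.8 to 449.5 ± 6.43 TPM (SD, n = 3 each), a log2 fold change of -0.79 (SE 0.0302, 95% interval -0.86 to -0.72, adjusted p = 3.33e-08, edgeR), a level 1.73-fold lower. Its rank by mean TPM went from 167 to 324, and 7.29% of tested genes had a lower log2 fold change.

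Krt7, a type II keratin of ductal and glandular epithelium, had the largest fold change of the 6 genes. Krt7 was at 140.8, 160.1 and 146.7 TPM in WT libraries and at 69.8, 62.5 and 63.8 TPM in KO libraries. The genotypes did not overlap, and the lowest WT library was far above the highest KO library. The mean fell from 149.2 ± 9.89 to 65.4 ± 3.90 TPM (SD, n = 3 each), giving a log2 fold change of -1.19 (SE 0.0528, 95% interval -1.31 to -1.07, adjusted p = 9.2e-08, edgeR), a level 2.28-fold lower. Its rank by mean TPM went from 1157 to 3014, and 3.44% of tested genes had a lower log2 fold change. The 95% interval of Krt7 did not overlap those of Krt8 and Krt18, which overlapped each other.

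The summed TPM of Krt7, Krt8 and Krt18 was 1755.3, 1804.5 and 1708.7 in WT libraries and 1033.8, 1023.2 and 986.7 in KO libraries. The sum was thus lower in each KO library than in each WT library, at 1756.2 ± 47.9 against 1014.6 ± 24.7 TPM (SD, n = 3 each). Within this sum, Krt8 made up 47.2% in WT and 49.2% in KO, Krt18 44.4% and 44.3%, and Krt7 8.49% and 6.45%.

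Because filaments pair a type II with a type I keratin, the ratio of (Krt7 + Krt8) to Krt18 in TPM was compared. It was 1.25, 1.29 and 1.23 in WT libraries and 1.26, 1.29 and 1.21 in KO libraries. The ranges overlapped almost fully, with means of 1.26 ± 0.0311 and 1.26 ± 0.0406 (SD, n = 3 each), a log2 difference of 0.00 and an exact two-sided permutation p of 1. The difference was between -0.02 and 0.03 when each library was left out in turn, so it has no settled sign.

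The Krt8 to Krt18 ratio alone was 1.06 ± 0.025 in WT and 1.11 ± 0.0418 in KO (SD, n = 3 each), a log2 difference of 0.06 with an exact permutation p of 0.2, in libraries whose ranges overlapped. The Krt7 to Krt8 ratio was 0.169, 0.187 and 0.185 in WT libraries and 0.138, 0.121 and 0.134 in KO libraries. Every KO library was below every WT library, the log2 difference was -0.46, and the exact permutation p was 0.1, the smallest that 3 libraries against 3 allow. With Krt80 and Krt10 added, the type II to type I ratio was 1.29 ± 0.0329 and 1.37 ± 0.0462 (SD, n = 3 each), with an exact p of 0.2. Of the 5 ratios computed, with Jup to the plakophilins below, none passed after Benjamini-Hochberg adjustment, where the lowest p was 0.25, and the design could not have reached 0.05.

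**Figure D2:**
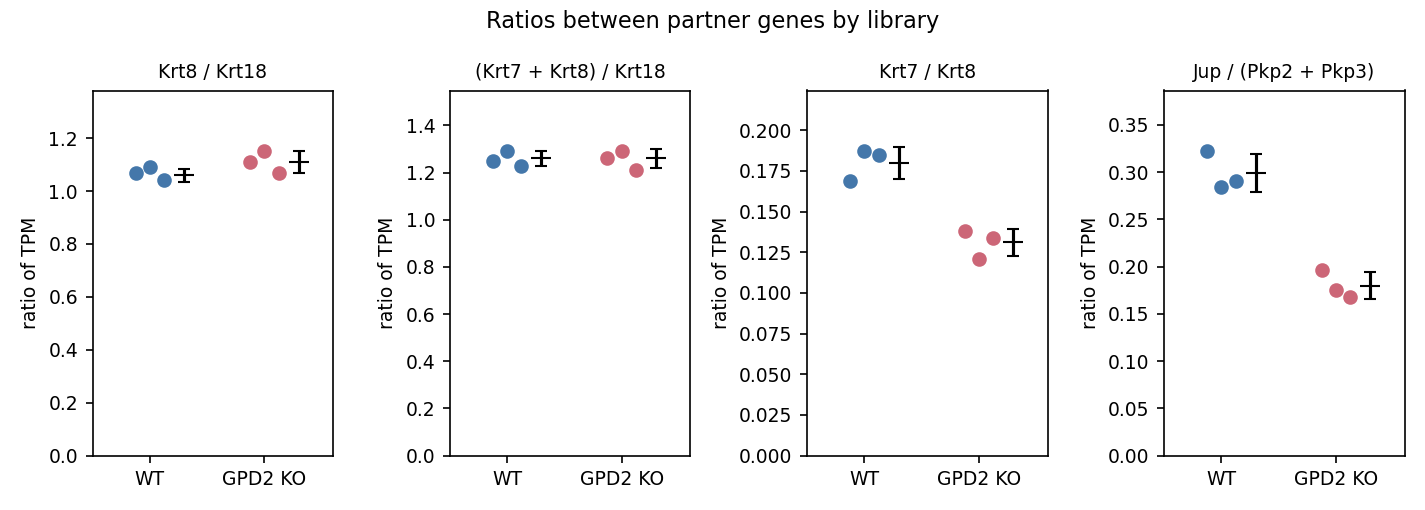
Ratios of TPM between partner genes in each WT (blue) and GPD2 KO (red) library, with the mean and SD of 3 libraries; axes start at 0. The type II to type I ratio averages 1.26 in both genotypes, while Krt7 to Krt8 and Jup to the summed plakophilins are lower in each KO library than in each WT library.

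Jup, or plakoglobin, binds the tails of desmosomal cadherins and also occurs in adherens junctions. It was at 19.9, 18.2 and 18.5 TPM in WT libraries and at 13.0, 11.9 and 11.1 TPM in KO libraries. Each KO library was below each WT library. Jup fell from 18.9 ± 0.870 to 12.0 ± 0.927 TPM (SD, n = 3 each), a log2 fold change of -0.65 (SE 0.0606, 95% interval -0.79 to -0.52, adjusted p = 1.03e-05, edgeR), a level 1.57-fold lower, and 10.1% of tested genes had a lower value. Jup lies on chromosome 11, where the median log2 fold change of the other 1015 tested genes was -0.36 and 70.4% of them were lower in KO. Its value was 0.29 below that median on the log2 scale, and 21.2% of the genes of chromosome 11 had a lower log2 fold change. The part of this chromosome-wide shift in the Jup result was not tested.

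Pkp2, a plakophilin that also serves the junctions of heart muscle, was at 14.5, 12.4 and 13.2 TPM in WT libraries and at 16.0, 14.9 and 14.9 TPM in KO libraries. The KO libraries were higher without overlap, but the gap between the nearest libraries was small beside the spread within WT. The means were 13.4 ± 1.05 and 15.3 ± 0.609 TPM (SD, n = 3 each), and the log2 fold change was 0.19 (SE 0.068, 95% interval 0.04 to 0.34, adjusted p = 0.0308, edgeR). This call was lost without WT replicate 2 (log2 fold change 0.14, adjusted p = 0.103), WT replicate 3 (0.18, 0.0661), KO replicate 1 (0.16, 0.105) or KO replicate 2 (0.20, 0.0588). Over all alternatives the adjusted p of Pkp2 ran from 0.00805 to 0.105. Pkp2 lies on chromosome 16, where the median log2 fold change of the other tested genes was 0.23, so Pkp2 was 0.03 below its chromosome.

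Pkp3, a plakophilin found in most desmosome-bearing epithelia, was the most abundant of the measured desmosome genes of the set on the TPM scale. It was at 47.1, 51.6 and 50.6 TPM in WT libraries and at 50.2, 53.0 and 51.3 TPM in KO libraries. The genotypes overlapped, and the log2 fold change was 0.05 (95% interval -0.05 to 0.16, adjusted p = 0.344, edgeR). The median log2 fold change of the other tested genes of chromosome 7, where Pkp3 lies, was 0.26, and 27.2% of them were below the value of Pkp3.

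The ratio of Jup to the summed TPM of Pkp2 and Pkp3 was 0.322, 0.284 and 0.291 in WT libraries and 0.196, 0.175 and 0.168 in KO libraries. It was lower in each KO library than in each WT library, with a log2 difference of -0.74 and an exact permutation p of 0.1, the smallest possible.

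The keratins lie on chromosome 15, where the other genes were not shifted as on chromosome 11. The median log2 fold change of the other tested genes of chromosome 15 was 0.04, with 32.9% of them higher and 26.9% lower. Krt7 was 1.23 below that median on the log2 scale, Krt18 was 0.83 below and Krt8 was 0.77 below. Of the genes of this chromosome, 2.24% had a lower log2 fold change than Krt7, 6.12% than Krt18 and 6.94% than Krt8. Across 20 chromosomes, the median ran from -0.39 to 0.26.

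**Figure D3:**
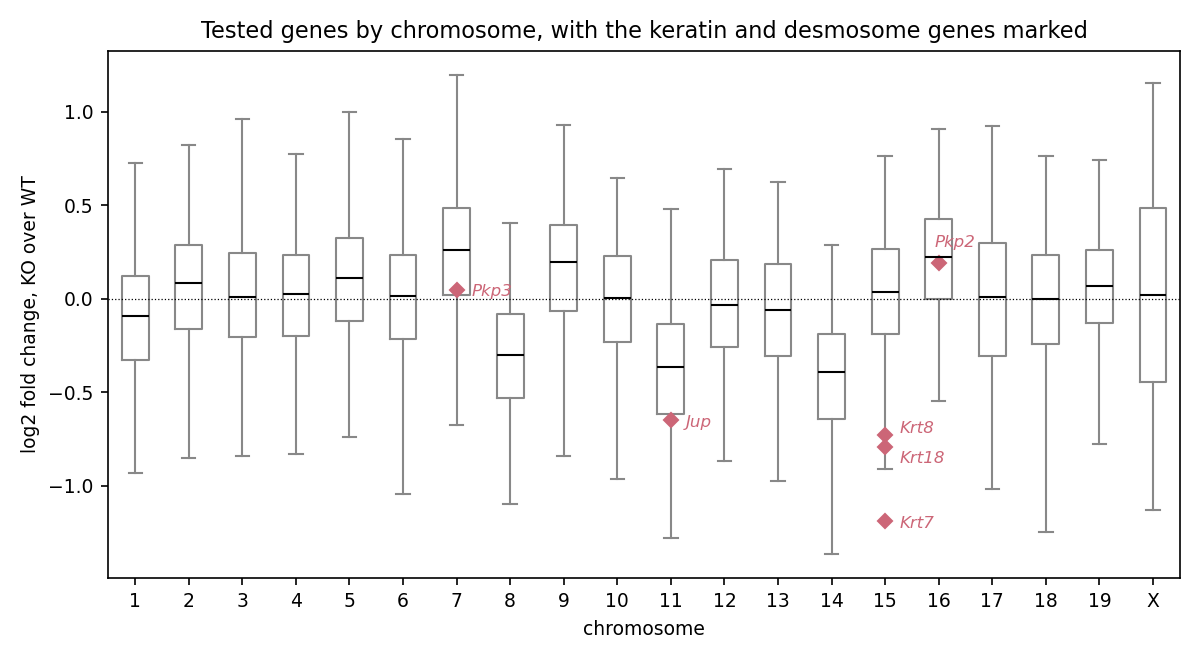
Log2 fold change of GPD2 KO over WT of all tested genes by chromosome, with the measured keratin and desmosome genes marked. Boxes run from the lower to the upper quartile with a line at the median, and whiskers extend past the boxes toward the outer genes. Krt7, Krt8 and Krt18 lie below the box of chromosome 15, Jup lies below the box of chromosome 11, whose median is -0.36, and Pkp2 and Pkp3 lie inside the boxes of chromosomes 16 and 7.

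Krt8 and Krt18 are neighbours in the keratin cluster: in GRCm38, Krt8 runs on the minus strand of chromosome 15 from 101996711 to 102004342 with 9 exons, and Krt18 runs on the plus strand from 102028216 to 102032026 with 7 exons. Their starts are 23.9 kb apart, and transcription runs away from the gap between them. Krt7 lies on the plus strand from 101412403 to 101427806 with 9 exons, and its start is 591.9 kb from that of Krt8. By the GENCODE annotation, from which exons were also taken, the coding sequences are 1371 bases in Krt7, 1470 in Krt8 and 1269 in Krt18. Jup runs from 100368856 to 100397839 on the minus strand of chromosome 11 with 14 exons, Pkp2 from 16213345 to 16272712 on the plus strand of chromosome 16 with 13 exons, and Pkp3 from 141078229 to 141090511 on the plus strand of chromosome 7 with 14 exons. Krt7 overlaps the annotated gene Gm671 and Krt8 overlaps Gm36026, and a Krt8 pseudogene, Krt8-ps, lies on chromosome 7. Whether the counting used strand is not stated by the labels or methods, so reads of these pairs could have been shared.

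The genes beside the keratins moved in both directions. Of the 5 nearest tested genes on each side of Krt18, 2 were higher, 5 were lower and 3 were not called, and the lower ones included Krt7 and Krt8. On chromosome 15, 32.9% of the other genes were higher and 26.9% lower. On the Krt7 side, the neighbours past Krt8 lay 615.8 to 774.3 kb from Krt18, and on the other side all lay within 122.2 kb. Within that distance Krt8, Eif4b, Tns2 and Igfbp6 were lower, Spryd3 was not called and Soat2 was higher. Whether the region shifted as a whole was not tested. Krt80, a type II keratin among the distant neighbours, rose with a log2 fold change of 0.76. The translation factor Eif4b, 45.6 kb from Krt18, changed by -0.17, and Tns2, which encodes a focal adhesion protein, by -0.27. Spryd3 was at -0.01 with an adjusted p of 0.845. Igfbp6, an insulin-like growth factor binding protein, fell by 0.80 on the log2 scale, and Soat2, a cholesterol esterifying enzyme, rose by 3.09 from 0.167 to 1.43 CPM. Around Jup, 7 of 10 neighbours were lower and 2 higher, with a median of -0.28. Around Pkp3, 7 of 10 were higher and 1 lower, with a median of 0.43, and around Pkp2 5 of 10 were higher and 1 lower, with a median of 0.21. These counts were near the shares of the whole chromosomes, 70.4% lower on chromosome 11, 60.3% higher on chromosome 7 and 57.2% higher on chromosome 16.

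**Figure D4:**
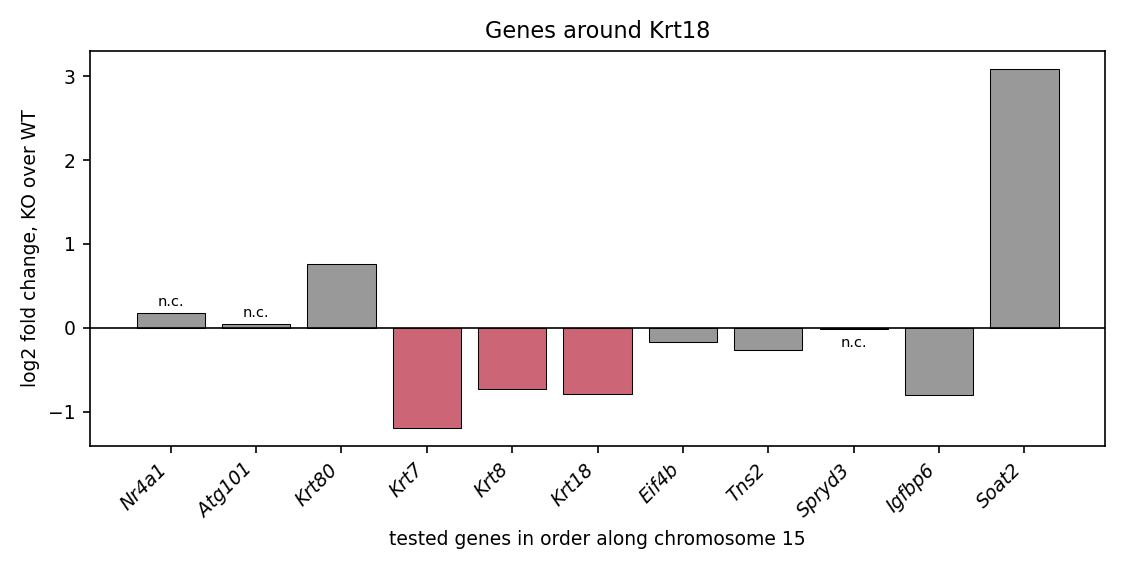
Log2 fold change of GPD2 KO over WT of Krt18 and its 5 nearest tested genes on each side, in their order along chromosome 15, with Krt7, Krt8 and Krt18 in red and n.c. above genes not called at an adjusted p under 0.05. Krt7, Krt8 and Krt18 lie at -1.19, -0.73 and -0.79, between Krt80 at 0.76 and Eif4b at -0.17.

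Of 28 other keratins listed, 3 were in the table, and 2 of them were higher and 1 was lower. The counts of this and each later list stand beside 33.5% higher and 33.3% lower over all tested genes. Krt80 was at 31.9, 33.7 and 30.0 TPM in WT libraries and at 56.8, 55.2 and 50.3 TPM in KO libraries. The groups did not overlap, and Krt80 rose by 0.76 on the log2 scale (SE 0.0587, adjusted p = 3.01e-06, edgeR), opposite in direction to Krt7 and Krt8, the other measured type II keratins. Krt10, a type I keratin of differentiated epidermis, fell from 2.01 to 1.19 TPM (log2 fold change -0.75, adjusted p = 0.00349), and Krt222 rose from 0.168 to 0.523 TPM (1.63, adjusted p = 0.00136). Both were far below Krt8, Krt18 and Krt7 in level, and both lie on chromosome 11.

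Of 14 other genes of desmosomes and of related cornified junctions, 5 were measured. Among them 3 were higher, 1 lower and 1 not called, where 33.5% of all tested genes were higher and 33.3% lower. Periplakin (Ppl), a plakin that links desmosomes and the cornified envelope to filaments, fell from 41.5 to 28.2 TPM (log2 fold change -0.55, adjusted p = 4.82e-05), although its chromosome, 16, had a median of 0.23. Pkp4, an armadillo protein related to the plakophilins, rose from 62.4 to 79.5 TPM (0.35, adjusted p = 0.000151). Perp, a desmosomal membrane protein and p53 target, rose from 5.86 to 7.81 TPM (0.41, adjusted p = 0.00391). Corneodesmosin (Cdsn), an adhesive protein of cornified desmosomes, rose from 0.710 to 3.70 TPM (2.38, adjusted p = 2.43e-05), and envoplakin (Evpl) was at 0.0569 and 0.0580 TPM (0.06, adjusted p = 0.913). With Jup, Pkp2 and Pkp3 counted in, the 8 measured desmosome genes moved in both directions.

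**Figure D5:**
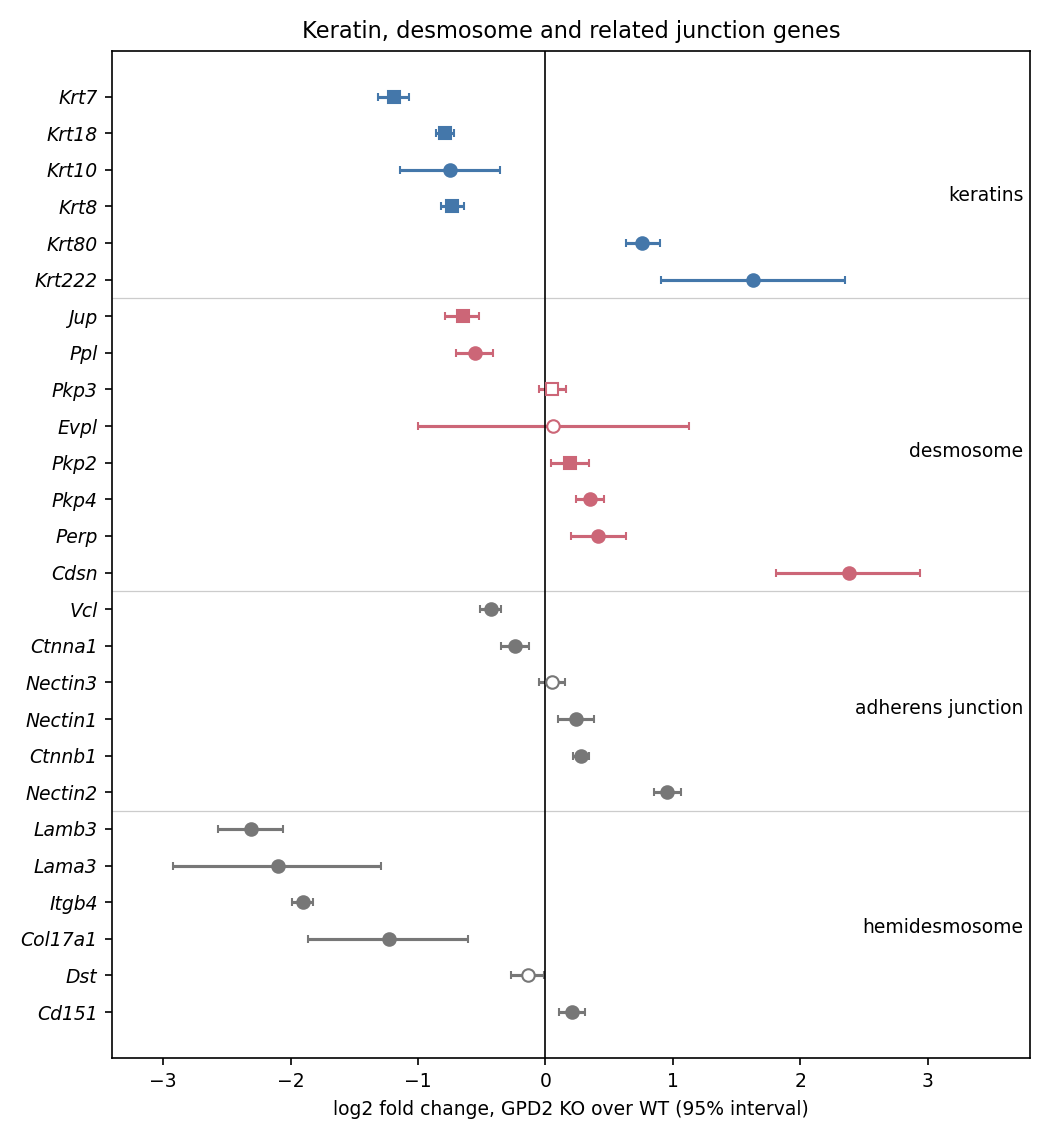
Log2 fold change of GPD2 KO over WT with the 95% interval for the measured keratins, desmosome genes and, for adherens junctions and hemidesmosomes, the 6 genes with the smallest adjusted p; squares mark the 6 genes of the set, and open symbols mark genes that did not pass an adjusted p of 0.05. Desmosome genes spread from -0.65 for Jup to 2.38 for Cdsn. Of the 6 hemidesmosome genes shown, from 8 measured, 4 lie at or below -1.23.

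Among plakins and keratin-binding proteins, 11 of 12 listed genes were measured, with 3 higher, 2 lower and 6 not called, and a median log2 fold change of 0.06. By the same test 66.8% of all tested genes were called. Epiplakin (Eppk1), a plakin that binds keratin filaments, rose from 5.92 to 11.4 TPM (log2 fold change 0.95, adjusted p = 4.03e-06), and trichoplein (Tchp), which binds keratin 8 and keratin 18, rose from 10.9 to 12.9 TPM (0.24, adjusted p = 0.0200). The Tchp call was lost without WT replicate 1 (0.18, adjusted p = 0.0735) or KO replicate 3 (0.18, 0.0863). Fam83h, which organises keratin filaments in human cells, was at 0.13 with an adjusted p of 0.0569, and it passed with DESeq2 (0.0197), limma-voom (0.0482) and the replicate block (0.0284) and without KO replicate 1 (0.0318). Between 4 and 7 genes of this list were called over the alternatives without a fold threshold. Besides Ppl, the other lower gene was Trp53bp2 (-0.36), and the other higher gene was Krtcap2 (0.38). Trp53bp2 is known as a p53-binding protein and Krtcap2 as a subunit of the enzyme that attaches N-glycans, so neither is a filament linker in the usual sense.

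Of 16 intermediate filament genes other than keratins, 10 were measured, with 1 higher, 5 lower and 4 not called, and a median of -0.20. Over all tested genes 33.5% were higher and 33.3% lower. Vimentin (Vim), the filament protein of mesenchymal cells, exceeded every keratin in level, at 7546.1 TPM in WT and 5740.9 in KO, and fell by 0.39 on the log2 scale (adjusted p = 1.08e-06). The summed level of Krt7, Krt8 and Krt18 and that of Vim were therefore both lower in KO. The lamin genes Lmna (-0.28) and Lmnb2 (-0.16), peripherin (Prph, -0.91) and desmin (Des, -2.30, from 1.85 to 0.377 CPM) also fell, and synemin (Synm) rose from 1.23 to 4.06 TPM (1.88, adjusted p = 6.36e-08). Synm lies on chromosome 7, where the median was 0.26. The Prph call was lost without WT replicate 1 (-0.63, adjusted p = 0.115), KO replicate 2 (-0.68, 0.0863) or KO replicate 3 (-0.95, 0.0544), and the Lmnb2 call without WT replicate 2 (-0.11, 0.0645) or KO replicate 3 (-0.14, 0.0684), so 4 genes of this list were called without KO replicate 3 in place of 6.

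Of the 15 adherens junction genes listed, 7 were measured, with 3 higher and 2 lower, where 66.8% of all tested genes were called. Cdh1 and Epcam, which define epithelial cells, were not analysed here. Beta-catenin (Ctnnb1), the closest relative of Jup, rose from 489.1 to 594.4 TPM (log2 fold change 0.28, adjusted p = 1.19e-05), the opposite direction to Jup. Ctnnb1 lies on chromosome 9, where the median log2 fold change was 0.20 and 52.4% of the other genes were higher, so it was 0.09 above its chromosome, while Jup was 0.29 below its own. Nectin2, a cell adhesion receptor, rose from 65.9 to 125.5 TPM (0.95, adjusted p = 1.42e-07), on chromosome 7 with its median of 0.26. Nectin1 rose by 0.24, which was 0.04 above the median of its chromosome, also 9. The actin linkers Vcl (-0.43) and Ctnna1 (-0.24) fell, Vcl by an amount near the median of its chromosome, 14, at -0.39, where 73.0% of the other genes were lower, and Nectin3 was at 0.05 with an adjusted p of 0.309.

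Hemidesmosomes anchor keratin filaments to the basement membrane, and 8 genes of them and their laminin ligand were measured, with 4 lower, 1 higher and 3 not called and a median of -0.69. These 5 of 8 called, or 6 under some alternatives, were close to the 66.8% of all tested genes. The summed CPM of the 8 genes was 3025.2 to 3139.4 in WT libraries and 2786.2 to 3046.2 in KO libraries, so the ranges overlapped. The measured genes of this list not named here were not called. Integrin beta 4 (Itgb4) fell from 40.2 to 10.7 TPM (log2 fold change -1.90, adjusted p = 3.71e-10), on chromosome 11 with its median of -0.36. The laminin chain genes Lamb3, from 9.76 to 1.96 TPM (-2.31), and Lama3, from 0.195 to 0.0458 TPM (-2.10), fell as well. Collagen XVII (Col17a1) fell from 0.627 to 0.264 TPM (-1.23), and the tetraspanin Cd151 rose from 270.5 to 311.3 TPM (0.21). Cd151 lies on chromosome 7, where the median log2 fold change of the other genes was 0.26 and 60.2% of them were higher. Dystonin (Dst), a plakin that links keratins to hemidesmosomes, was at 31.5 and 27.9 TPM (-0.14, adjusted p = 0.0589). It passed as lower with DESeq2 (0.0162), the replicate block (0.0165) and limma on TPM (0.0278 at a pseudocount of 1 and 0.0273 at 0.1). Dst also passed without WT replicate 3 (0.0122) or KO replicate 1 (0.0467). The Lama3 call was lost with limma on TPM at a pseudocount of 1 (adjusted p = 0.0514).

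Transcription factors of epithelial cells were measured for 6 of 12 listed genes. Of the 6, 3 were higher, 1 lower and 2 not called, where 66.8% of all tested genes were called. Klf4 rose from 4.30 to 11.2 TPM (log2 fold change 1.38, adjusted p = 8.61e-07), Grhl1 from 0.458 to 1.22 TPM (1.39, adjusted p = 0.000583) and Elf3 from 5.15 to 6.80 TPM (0.40, adjusted p = 0.00763). Klf5, the most abundant of them, fell from 91.2 to 77.4 TPM (-0.23, adjusted p = 0.000537), which was 0.16 above the median of its chromosome, 14, at -0.39. Among repressors that bind E-boxes or act against the epithelial state, 5 of 7 were measured, with 1 higher and 2 lower. Snai1 rose from 24.5 to 29.4 TPM (0.26, adjusted p = 0.00186), Foxc2 fell from 13.7 to 4.87 TPM (-1.48, adjusted p = 2.25e-06) and Zeb1 fell from 0.101 to 0.0415 TPM (-1.21, adjusted p = 0.0213). Foxc2 lies on chromosome 8, where the median was -0.30. The Zeb1 call, at few counts, was lost with DESeq2 (adjusted p = 0.0891), with limma on TPM (0.319 at a pseudocount of 1 and 0.139 at 0.1), and without WT replicate 2 (0.0772) or KO replicate 1 (0.0758). Zeb2 (0.08, adjusted p = 0.0924) and Twist1 (0.01, adjusted p = 0.886) did not pass. Of the 21 cornified envelope genes listed, both tested genes rose, the protease inhibitor Cst6 from 1.76 to 4.80 TPM (1.45) and suprabasin (Sbsn) from 12.7 to 21.9 TPM (0.79).

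Markers of mammary and other cell types were summed in CPM beside these results. Of 15 luminal markers, 5 were measured and summed to 1284.1 to 1349.9 CPM in WT and 742.5 to 775.9 in KO, but the 3 that fell were Krt7, Krt8 and Krt18 themselves. The other luminal markers, Esr1 (-0.20, adjusted p = 0.0591) and Muc1 (0.44, adjusted p = 0.202), did not pass the test. Esr1 did pass as lower without WT replicate 2 (-0.26, adjusted p = 0.0249, edgeR) or KO replicate 2 (-0.27, 0.0229). Of 10 basal or myoepithelial markers, 2 were measured and summed to 59.1 to 61.9 CPM in WT and 61.7 to 63.4 in KO, nearly all from Mylk (0.06, adjusted p = 0.157). The other measured one, calponin (Cnn1), a contractile protein of smooth muscle and myoepithelium, fell from 0.439 to 0.0685 TPM (-2.28, adjusted p = 0.000526). The sums were 115.8 to 116.1 in WT and 56.1 to 63.9 in KO for 3 of 9 fibroblast markers, 38.0 to 39.1 and 30.0 to 31.9 for 5 of 10 macrophage markers, 1.08 to 1.29 and 1.68 to 2.11 for 2 of 8 lymphocyte markers, and 20.5 to 21.3 and 3.11 to 3.89 for Cdh5, 1 of 7 endothelial markers. Most of the fibroblast, macrophage and endothelial sums came from Pdgfra (-0.89), Cd68 (-0.43), Cd14 (-0.20) and Cdh5 (-2.56). The other fibroblast markers went opposite ways, Col1a1 at -1.77 and Pdgfrb at 1.66. At low counts, Lyz2 (-1.72) and Mrc1 (-1.17) of the macrophage list fell, and Itgam (0.71) did not pass. Both lymphocyte markers, Lck (0.63) and Cd79a (1.26), rose. The Mrc1, Lck and Cd79a calls were each lost when some library was left out. The part of these markers in the keratin and desmosome results was not tested.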

How the data were processed

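RNA-seq was done on 3 WT and 3 GPD2 KO samples of 4T1 cells, and the genotype label gave the group. Libraries were made with a stranded mRNA kit. Per the methods and the processing notes, the authors used Trimmomatic 0.38 for trimming, HISAT2 2.1.0 for alignment to the mm10 build, and StringTie 1.3.4d for quantification. The deposited table holds unnormalized read counts per gene, as well as the authors' FPKM and TPM for each library. Its 12534 genes each have at least 1 count in every library. The authors' own comparison columns (fold changes, p-values and group means) and their normalized log values were not used.

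Counts were tested in R 4.3.3 with edgeR 4.0.16, as a quasi-likelihood test of KO against WT with TMM factors (0.992 to 1.01) and a filterByExpr minimum count of 10, which kept 12106 genes, and Benjamini-Hochberg adjustment over all of them. Standard errors came from the quasi-likelihood F. CPM is relative to TMM-scaled totals, except in the summed CPM of lists, which used library totals without TMM factors. Levels and ratios used TPM. Alternatives used limma 3.58.1, DESeq2 1.42.0, FPKM in place of TPM, other pseudocounts and filters, a replicate block, and each library left out in turn. The ratios Krt7 to Krt8 and Jup to plakophilins, and the ratio with Krt80 and Krt10, were chosen after seeing the data, as was the distance from the chromosome median. Positions matched by Entrez identifier for 12512 of 12534 genes.

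The members and lists were chosen with earlier results of these data known. Named were the members, Gpd2, the measured genes with the smallest adjusted p in each list, 6 at most, and the marker of each list with the highest TPM; the neighbours of Krt18 named were those found around it. A listed gene that is withheld is not reported here, and its list is counted without it. The workflow was tested on simulated data with known changes in few genes. The test called 12 of 50 genes changed 1.2-fold, 44 of 50 changed 1.5-fold, 46 of 49 changed 2-fold and 50 of 50 changed 4-fold. It also called 15 of 11854 unchanged genes. Changes as small as 1.2-fold were thus mostly missed in the simulation. Far more genes passed in the data, which makes the adjustment less strict, and Pkp2 was called there at 1.14-fold. The simulated shares therefore do not carry over to the data. Replicates differed by more than sampling noise (chi-square per degree of freedom 16.9 to 25.6). Each was counted as 1 sample, although this spread cannot show whether replicates were separate cultures.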

Additional observations from a re-analysis of the deposited data

How the results depend on the processing

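Krt7, Krt8, Krt18 and Jup kept their direction and an adjusted p under 0.05 under each alternative without a fold threshold, with the adjusted p at most 1.22e-05, 6.3e-06, 5.05e-06 and 9.33e-05, and Pkp3 never passed (0.221 to 0.824). With a fold of 2, by the exact test or the quasi-likelihood test, 1046 (467 higher, 579 lower) and 1015 genes (453 and 562) passed in place of 8085, and 1 member in place of 5. Krt8 (-0.73), Krt18 (-0.79), Jup (-0.65) and Pkp2 (0.19) lost the call since the fold threshold was not met. Under both fold settings the counts were 1 for other keratins, other desmosome genes, cornified envelope, luminal markers and lymphocyte markers, 2 for other intermediate filaments, epithelial transcription factors and macrophage markers, and 0 for plakins and for adherens junctions. DESeq2 called 1 lymphocyte marker in place of 2; the cause was not tested. Without 1 library each, changed genes numbered 7433 to 7783, members 4 to 5 and lymphocyte markers 1 to 2, Pkp2 lay at 0.14 to 0.26, and the type II to type I ratio lay at -0.02 to 0.03, on either side of 0. Evpl (-0.37 to 0.31), Grhl2 (-0.33 to 0.03), Esrp2 (-0.04 to 0.02) and Twist1 (-0.06 to 0.07), none called, also changed sign, and the cause was not tested. The other settings gave 7967 to 8112 changed genes.

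Same-numbered replicates did not deviate together (correlations 0.055, 0.062 and -0.017), so samples share only a number. With the replicate block, 7974 genes and 5 members were called, and no member's call changed. With 3 libraries a group an exact permutation p cannot go below 0.1. Genes at low counts, such as Evpl, Lama3 and Zeb1, have wide intervals. All results rest on 1 KO clone.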
